A study of Tilletiopsis washingtonensis and Meira miltonrushii with 14 samples.

Results

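The genes described here are abundant transcripts of *Meira miltonrushii* whose levels stayed close between filamentous and yeast growth. Members were chosen by their normalized counts: genes were ranked by the mean of the filamentous and yeast levels, the 300 highest were taken, and those with a filamentous over yeast ratio between 0.714 (1/1.4) and 1.4 were kept. The rule gave 72 members out of 300 abundant genes and 7400 genes with a normalized level. The same levels and the same ratio chose the members, so both are given below as a description and carry no test.

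Poly(A)+ RNA of strain MCA 3882 was sequenced from 3 filamentous and 3 yeast libraries, out of 14 libraries of 2 species in the series. The filamentous libraries came from cells held on 1% Tween40, a detergent made of palmitate esters, and the yeast libraries from cells held on 1% glucose. All cells had first grown for 7 days in potato dextrose broth and then spent 3 days at 25 °C in a minimal medium with the carbon source of their group. Growth form and carbon source changed together and cannot be told apart. All libraries came from 1 strain, and the labels do not say that each replicate was a separate culture, so spreads between replicates may be technical.

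*M. miltonrushii* belongs to the Ustilaginomycotina, a group that includes the plant-parasitic smuts and in which many species switch between budding yeast cells and hyphae. Transcripts that a fungal cell holds in large amounts in any growth form commonly encode ribosomal proteins, translation factors, histones, chaperones and enzymes of energy metabolism. Genes of that kind are often used as references for measuring other transcripts. The files identify *M. miltonrushii* genes by protein identifier only, so which of these functions each member has is not given here, and members are called by their identifiers.

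Levels are deposited normalized counts, that is, read counts divided by 1 factor per library. They are not divided by transcript length, so they rank genes by reads and not by molecules. Counts assigned to genes were 7.29 M to 15.8 M in filamentous libraries and 11.5 M to 17.1 M in yeast libraries. Every member had at least 2746 raw counts in every library, at which counting error alone gives a coefficient of variation of 1.91%. In RNA from whole cultures, a lower level per cell and fewer cells that hold the transcript cannot be told apart.

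Steady genes were found below the very top of the abundance ranking. The 20 most abundant genes all had ratios above 1.4, and the most abundant member stood at rank 21. Of the 100 highest ranked genes 21 fell inside the window, 63 were above it and 16 below it. Ranks 101 to 200 held 27 members and ranks 201 to 300 held 24. Among the 300 genes as a whole, 163 were above the window and 65 below it. That lean rests on the deposited factors. With the rule applied anew, the counts were 143 and 78 with upper-quartile factors and 109 and 106 with library size alone. The share of genes with a ratio in the window was 24% in the 300, 21.5% at ranks 301 to 500, 27.4% at ranks 501 to 1000 and 34.5% at ranks 1001 to 2000. Over the 6778 genes tested it was 33.3%.

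**Figure D1:**
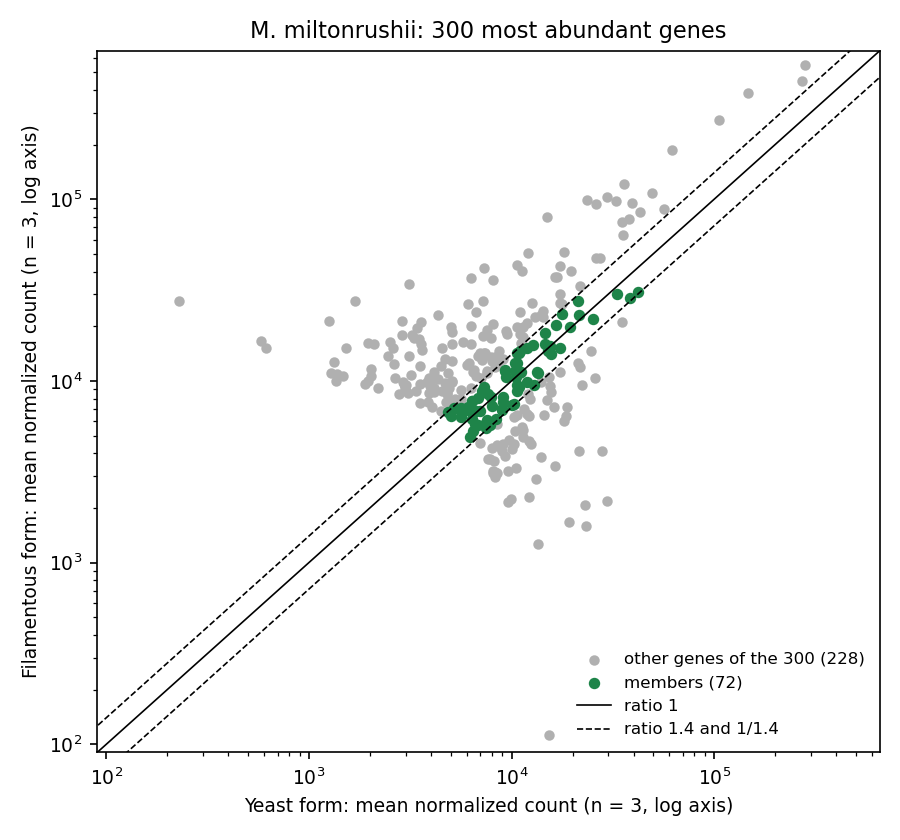
Mean normalized count in filamentous libraries (vertical, log axis, n = 3) against yeast libraries (horizontal, log axis, n = 3) for the 300 most abundant genes, with the 72 members in green, the 228 others in grey and the window of the rule as dashed lines. The most abundant genes lie above the window, and with the deposited factors 163 genes lie above it against 65 below it.

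Within the window the ratios were spread over its whole width. The filamentous mean was the higher for 39 members and the lower for 33, and the median ratio was 1.01. Of the 72 members 15 had ratios within 1.1-fold of equality, 33 within 1.2-fold and 56 within 1.3-fold.

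The limits of the rule cut through a continuous run of values. At the lower limit, the members just inside were protein 186723 with a ratio of 0.727 and protein 149625 with 0.729, and the genes just outside were protein 160947 with 0.710 and protein 16763 with 0.705. At the upper limit, the members just inside were protein 148951 with 1.397 and protein 181350 with 1.37, and the genes just outside were protein 159703 with 1.405 and protein 123632 with 1.42. The last members by rank were protein 31890 at rank 288 and protein 21321 at rank 299, with means of 5730 and 5572 normalized counts. The next genes with a ratio in the window stood at ranks 303 and 312, with means of 5518 and 5438.

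The most abundant member was protein 162183. It had 28424, 30554 and 33564 normalized counts in filamentous libraries and 37267, 42452 and 46226 in yeast libraries. The forms did not overlap, and its ratio of 0.735 lay near the lower edge of the window. Protein 13279 had 29496, 28746 and 27899 normalized counts in filamentous libraries and 46444, 37738 and 30521 in yeast libraries. Its filamentous replicates were close together, while its yeast replicates spread until the lowest was near the filamentous level. Protein 159340 had 27754, 30861 and 31959 normalized counts in filamentous libraries and 36224, 31725 and 31786 in yeast libraries, which put the ratio at 0.908 with overlapping forms.

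Protein 119251 leaned the other way, with 24626, 29880 and 28600 normalized counts in filamentous libraries and 19369, 21676 and 22649 in yeast libraries. All its filamentous libraries were above all its yeast libraries, at a ratio of 1.305. Protein 163584 had 20856, 21327 and 23384 normalized counts in filamentous libraries and 27042, 24724 and 23770 in yeast libraries. Its forms did not overlap, by a narrow gap, and the ratio was 0.868. Protein 162316 was the steadiest of the most abundant members, with 23121, 22193 and 23620 normalized counts in filamentous libraries and 20707, 21437 and 22469 in yeast libraries. Its highest library was 1.14 times its lowest, and the forms overlapped.

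Both members of the next pair had spread yeast replicates. Protein 27121 had 24446, 21912 and 23450 normalized counts in filamentous libraries and 21735, 17877 and 13518 in yeast libraries, and at a ratio of 1.31 the forms came close without overlapping. Protein 161658 had 21517, 18346 and 19863 normalized counts in filamentous libraries and 23513, 19855 and 15185 in yeast libraries. The means of protein 161658 were within a ratio of 1.02, while its yeast libraries stood both above and below all filamentous libraries.

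Protein 155017 had 20771, 17867 and 22152 normalized counts in filamentous libraries and 16805, 13386 and 19688 in yeast libraries, with overlap at a ratio of 1.22. Protein 92845 had 18470, 18498 and 18396 normalized counts in filamentous libraries and 15865, 13669 and 14412 in yeast libraries. Its filamentous replicates had a coefficient of variation of 0.286%, the lowest of any member in either form, which is below counting error for a single library and rests on 3 values. The yeast libraries of protein 92845 were all lower, and its ratio was 1.26.

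**Figure D2:**
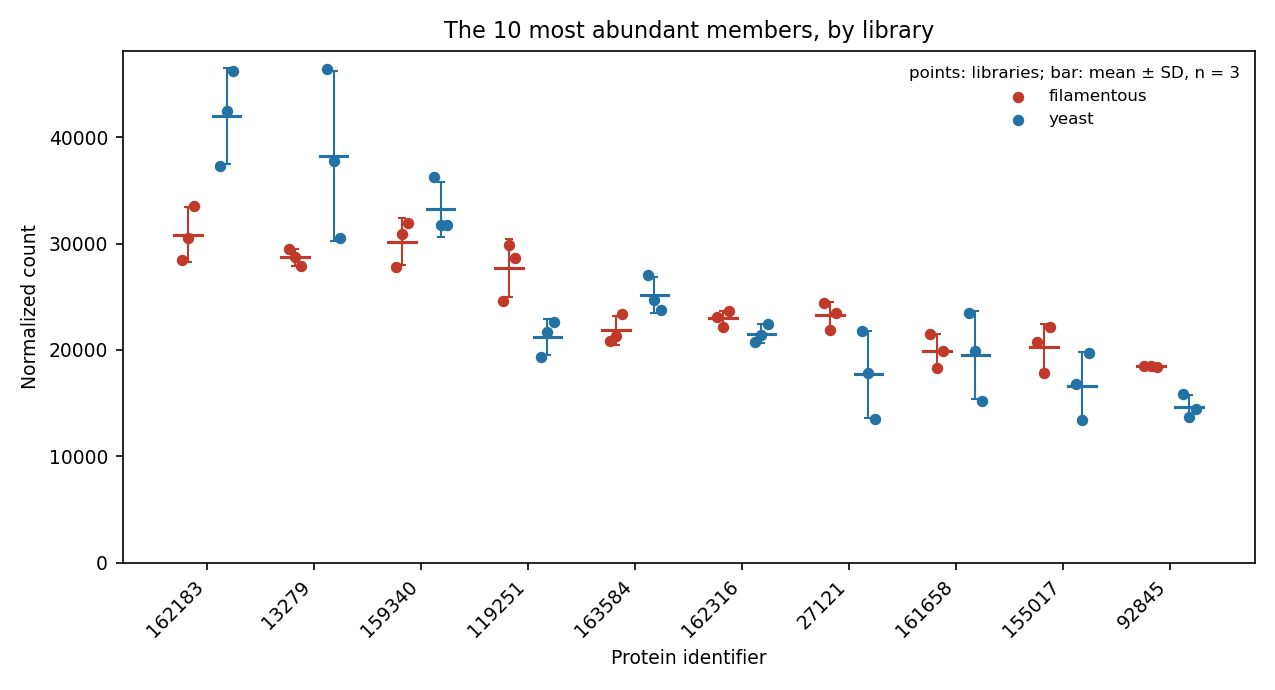
Normalized counts (vertical) of the 10 most abundant members (horizontal, by protein identifier), with filamentous libraries in red left of yeast libraries in blue, and the mean ± SD (n = 3 each). Proteins 159340, 162316, 161658 and 155017 have overlapping forms, and the yeast replicates of proteins 13279, 27121 and 161658 are the more spread.

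Members with near equal means were not all equally tight between replicates. The spread within forms was summarised for each member as the root mean square of its coefficients of variation in the filamentous and yeast forms, and it ran from 3.04% to 36.3% with a median of 10.2%. The rule used the means of the forms and not this spread.

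Protein 79665 was the tightest member, with 6654, 7005 and 6819 normalized counts in filamentous libraries and 6389, 6835 and 6698 in yeast libraries. All its libraries lay within 1.096-fold of one another, and the forms overlapped. Protein 143257 had 10992, 10128 and 10402 normalized counts in filamentous libraries and 11166, 9838 and 10465 in yeast libraries. Its filamentous mean of 10507 ± 442 and its yeast mean of 10490 ± 664 (SD, n = 3 each) gave a ratio of 1.002. The tightest members also included protein 162316, described above.

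Tight replicates did not require equal means. Protein 120982 had 11376, 10901 and 10680 normalized counts in filamentous libraries and 13260, 13165 and 14078 in yeast libraries, a spread within forms of 3.49%. Protein 121101 had 5516, 5964 and 6090 normalized counts in filamentous libraries and 7598, 7210 and 7551 in yeast libraries, a spread of 4.16%. Both were lower in every filamentous library than in any yeast library, with ratios of 0.814 and 0.786.

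The widest members spread more between yeast than between filamentous libraries. Protein 153048 had 15155, 14757 and 13015 normalized counts in filamentous libraries and 13889, 13513 and 4404 in yeast libraries. Its yeast replicate 3 was far below the other 5 libraries, and its ratio of 1.35 was 1.04 without that library. Protein 108196 had 7265, 7669 and 7282 normalized counts in filamentous libraries and 15126, 9482 and 5603 in yeast libraries. The yeast libraries of protein 108196 lay on both sides of a tight filamentous group, so a ratio of 0.735 between means described no single yeast library well.

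Protein 50054 had the same layout, with 5610, 5812 and 5879 normalized counts in filamentous libraries and 9647, 5943 and 4274 in yeast libraries. Protein 186796 had 5678, 6899 and 8130 normalized counts in filamentous libraries and 11962, 9700 and 5388 in yeast libraries. Protein 181350, close to the upper limit of the rule, had 8780, 5471 and 6994 normalized counts in filamentous libraries and 6511, 5629 and 3394 in yeast libraries, and was spread in both forms. Yeast replicate 3 was the lowest of the 6 libraries for all 5 of these members.

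**Figure D3:**
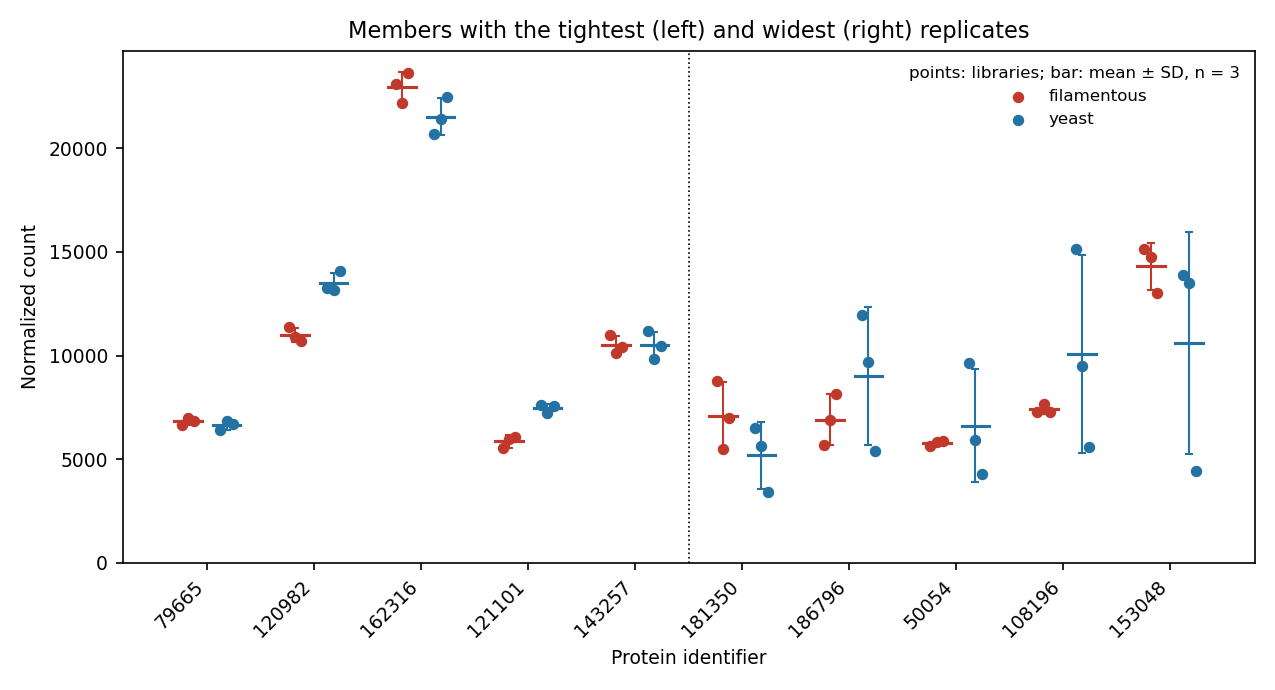
Normalized counts (vertical) of the 5 members with the tightest replicates, left of the dotted line, and the 5 with the widest, right of it (horizontal, by protein identifier), with filamentous libraries in red left of yeast libraries in blue and the mean ± SD (n = 3 each). The widest members show long yeast error bars and, for proteins 50054 and 108196, a tight filamentous group inside the yeast range.

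Yeast libraries spread more than filamentous libraries over the members as a whole. The coefficient of variation had a median of 7.93% in the filamentous form and 11.9% in the yeast form, and it was larger in the yeast form for 53 of 72 members. That count was not taken over other genes, so nothing about the members is read from it. The coefficient exceeded 20% for 4 members in the filamentous form and 18 in the yeast form. The widest values were 25.4% in the filamentous and 50.7% in the yeast form. Among the 228 other abundant genes the medians were 8.38% and 16.2%, and 13 and 78 genes exceeded 20%. Over all genes tested the medians were 10.7% and 16.4%.

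For a test over libraries, each library was given 1 value: the median over members of the absolute log2 difference from the mean of the other libraries of its form. This deviation was 0.115, 0.0860 and 0.0757 in filamentous libraries and 0.194, 0.139 and 0.165 in yeast libraries. With the deposited factors all filamentous libraries were below all yeast libraries, with means of 0.0922 ± 0.0204 and 0.166 ± 0.0273 (SD, n = 3 each). A two-sided exact permutation test gave p = 0.1, and 3 libraries against 3 cannot give less; the value was 0.15 after Benjamini-Hochberg adjustment over 3 sets of genes, so the difference could not pass 0.05 in this design. Each value draws on the other libraries of its form, so values within a form are not independent. The difference of -0.0738 was -0.0222 without filamentous replicate 2, -0.0433 without filamentous replicate 3 and -0.141 without yeast replicate 2. With a library left out, the remaining libraries of its form are set only against each other and share the same deviation. Those differences are therefore not on the same footing as the full one. With TMM factors the forms overlapped, as yeast replicate 2 stood at 0.111 and filamentous replicate 1 at 0.117, and the exact permutation p was 0.2. With library size alone they overlapped too, at 0.106 and 0.126 for the same libraries. Yeast libraries were on average the deeper ones.

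Wider yeast replicates were also seen outside the members. Over the 228 other abundant genes the deviation averaged 0.126 ± 0.0203 for filamentous replicates and 0.231 ± 0.0453 for yeast replicates (SD, n = 3 each, exact permutation p = 0.1, adjusted p = 0.15). Over all genes tested it averaged 0.155 ± 0.0149 in filamentous and 0.242 ± 0.0637 in yeast libraries, where the forms overlapped narrowly (exact permutation p = 0.2, adjusted p = 0.2). In each of the 6 libraries the members had a smaller deviation than the other abundant genes, and also than all genes tested. No test of that difference between sets of genes was run.

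**Figure D4:**
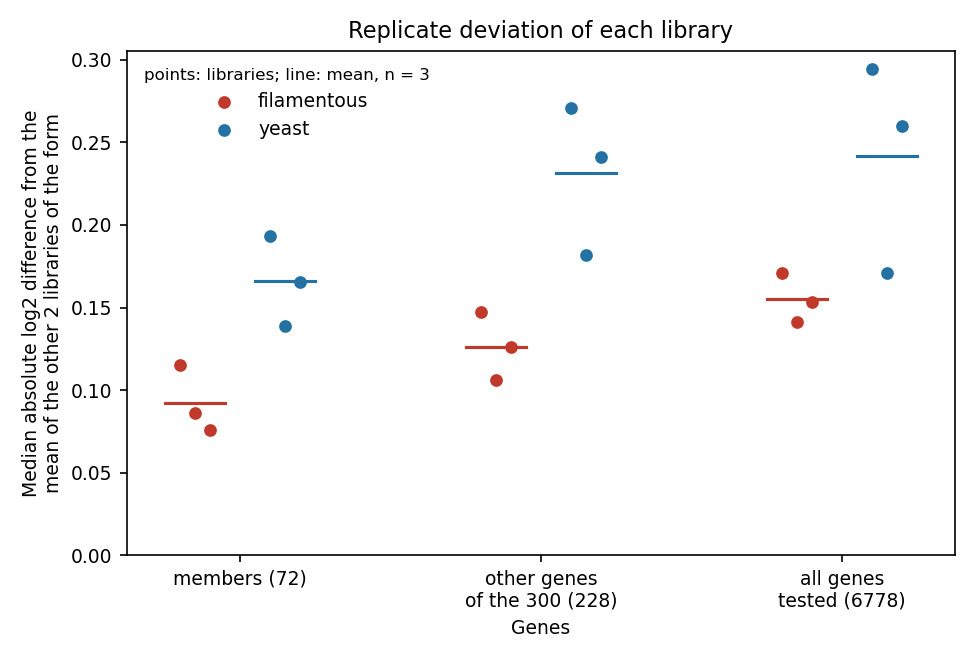
Replicate deviation of each library (vertical, median absolute log2 difference from the mean of the other libraries of its form) for the members, the other genes of the 300 and all genes tested, with filamentous libraries in red left of yeast libraries in blue and lines at the means (n = 3 each). For the members the filamentous libraries lie between 0.0757 and 0.115 and the yeast libraries between 0.139 and 0.194.

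Library pairs differed in how many members they moved apart. Between filamentous replicates, 4, 4 and 1 members differed by 1.4-fold or more for the pairs 1 and 2, 1 and 3, and 2 and 3. Between yeast replicates the counts were 6, 16 and 8 for the same pairs, so yeast replicates 1 and 3 were the most distant pair. For the filamentous pairs these counts were 5.56%, 5.56% and 1.39% of the members, against 5.26%, 3.07% and 2.63% of the other abundant genes. For the yeast pairs they were 8.33%, 22.2% and 11.1% of the members, against 17.1%, 32.5% and 21.1% of the other abundant genes.

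Over all 6 libraries, the ratio of the highest to the lowest library had a median of 1.504 among the members and ran from 1.096 to 3.44. It was below 1.2 for 6 members, below 1.5 for 35, between 1.5 and 2 for 29 and at least 2 for 8. The share below 1.5 was 48.6% of the members and 14.1% of all genes tested, a contrast that the rule itself builds in.

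Genes chosen by the rule were also compared with a library that took no part in their choice. The rule was applied to the 5 remaining libraries, and the library left out was then set against the mean of the other growth form. Without filamentous replicate 1, 59 of 76 chosen genes had that library's value within the window. Without filamentous replicate 2 it was 63 of 76, and without filamentous replicate 3 it was 67 of 70.

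The yeast libraries were treated likewise. With yeast replicate 1 left out, 51 of 67 chosen genes had its value within the window. The counts were 60 of 72 for yeast replicate 2 and 54 of 77 for yeast replicate 3. The share within the window was thus 70.1% to 95.7% of chosen genes, and it was 4.46% to 15.02% of the abundant genes not chosen. The mean of the other growth form was shared between choice and comparison, so the steps were not independent. The genes not chosen were those with ratios outside the window. The rule thus builds in much of this contrast, and nothing is read from it.

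Membership depended moderately on single libraries. With 1 library left out, 59 to 70 of the 72 members were chosen again, fewest without yeast replicate 1. Of the 72, 53 were chosen in all 6 such sets and 19 were lost at least once.

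Steadiness depended on how libraries were scaled. The deposited factors make the bulk of genes equal between forms, and the median log2 ratio of all genes tested was -0.02 with them. The members' normalized counts then summed to 798391, 821856 and 843216 in filamentous libraries and 865887, 808416 and 792744 in yeast libraries, which overlap. As a share of all gene counts, the members held 6.01%, 6.28% and 6.48% of filamentous libraries and 8.13%, 8.11% and 8.03% of yeast libraries. On that scale the members were below their yeast share in every filamentous library, at 6.26% ± 0.233 against 8.09% ± 0.0528 (SD, n = 3 each).

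The other abundant genes took a larger share of filamentous than of yeast libraries. They held 46.0%, 44.5% and 43.8% of gene counts in filamentous libraries and 33.5%, 31.3% and 29.3% in yeast libraries.

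With TMM factors, an alternative that also centres the bulk of genes, the rule gave 72 genes of which 71 were members. Protein 148951, at the upper limit, was the member lost. Upper-quartile factors gave 79 genes, of which 63 were members. With library size alone the rule gave 85 genes, of which 43 were members, that is 59.7% of the members and 50.6% of the genes so chosen.

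Under library size alone the members' log2 ratios ran from -0.83 to 0.11 with a median of -0.35, and 65 of 72 were below 0. Over all genes tested the median was then -0.39, so the members moved with the bulk of genes. In all, 42 members were in the window under all 4 scalings. Scaling cancels when each member is set against the geometric mean of the 72 in the same library. On that measure the log2 difference, filamentous minus yeast, ran from -0.47 to 0.58, and 31 members were within 1.2-fold. With the deposited factors that geometric mean itself had a filamentous over yeast ratio of 1.01, since the rule chose its genes for close levels. The measure therefore nearly repeats the ratio of the rule, and nothing is read from it.

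**Figure D5:**
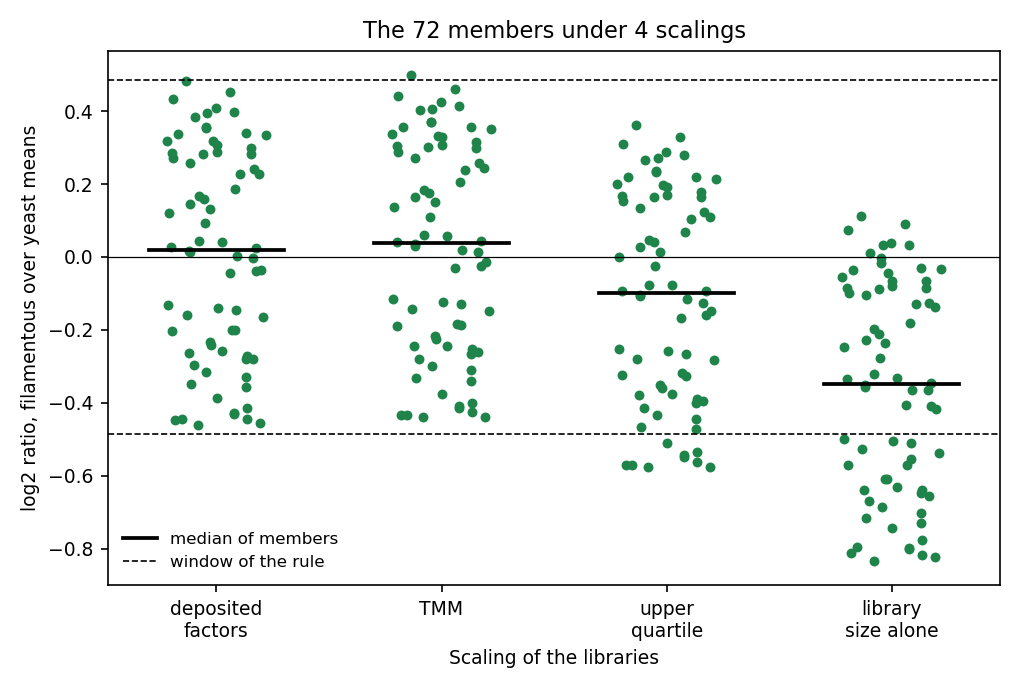
The log2 ratio of filamentous over yeast means (vertical) of the 72 members under 4 scalings of the libraries (horizontal), with black lines at the median of the members and dashed lines at the window of the rule. The median is 0.02 with the deposited factors, 0.04 with TMM, -0.10 with upper-quartile factors and -0.35 with library size alone.

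By rank, most members stood lower in the filamentous form even where their normalized counts did not differ much. Rank among all genes was lower in the filamentous form for 59 members and higher for 13, and the median shift was 32.5 places. The median rank of the members was 193 in the filamentous form and 130 in the yeast form. Of the 72 members 15 were among the 100 most abundant genes of the filamentous form and 22 among those of the yeast form, and 15 were in both lists. A member's rank depends both on its own ratio within the window and on how other genes moved, and these were not separated. Protein 148951, with a ratio of 1.397, stood at rank 299 in the filamentous and 357 in the yeast form. Protein 149625, with a ratio of 0.729, stood at ranks 352 and 178. With the deposited factors, 163 of the other abundant genes were above the window and 65 below it. The members' rank shift was not compared with that of other genes, so nothing is read from it.

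The differential test, edgeR's quasi-likelihood test over all genes, used the contrast that chose the members, so nothing is read from its calls here. It called 15 members at an adjusted p under 0.05, 8 higher and 7 lower in filamentous growth, beside 66.1% of all genes tested (33.4% higher and 32.7% lower). With library size alone it called 37 members, all of them lower. The count was 6, 1 and 5 without filamentous replicates 1, 2 and 3, and 23, 7 and 19 without yeast replicates 1, 2 and 3. The smallest adjusted p was that of protein 148951 (0.00671, log2 fold change 0.50).

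Growth forms did not overlap for 31 members, 15 with all filamentous libraries above and 16 with all below. Over all genes tested 71.3% did not overlap, 35.9% with filamentous libraries above and 35.4% with them below. A call missed does not show equal levels. The 95% interval of the log2 difference, from limma on the deposited normalized counts, had a median half-width of 0.30, against 0.49 for the distance from equality to the limit of the window. It lay wholly inside the window for 23 members, beside 7.29% of all genes tested. The rule placed every member's ratio inside the window at the outset, so nothing is read from these shares. For protein 143257 it ran from -0.26 to 0.27, for protein 79665 from -0.22 to 0.30, and for protein 153048 from -0.41 to 1.62.

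The same rule was applied to *Tilletiopsis washingtonensis*, the other species of the series, with 4 libraries per form. The 72 *M. miltonrushii* members were 24% of the 300 ranked genes, and in *T. washingtonensis* the rule gave 112 genes, or 37.3% of 300. Outside the window, 163 genes were above it and 65 below it in *M. miltonrushii*, against 63 above and 125 below in *T. washingtonensis*. These counts rest on the deposited factors. With library size alone those of *M. miltonrushii* were 109 above and 106 below. Species, strain and number of libraries differed together, genes were not matched between species, and the difference between species was not tested.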

How the data were processed

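Per the submitters' processing notes, the tools were HTSeq 0.7.0, TopHat2 2.1.1, DESeq2 1.20.0 and cutadapt 1.13, with no roles stated. The sources used here do not give the genome build, annotation or strand setting. Raw counts of reads were deposited per protein identifier. The normalized table of the authors holds a signal that is each raw count over a library factor, constant within a library to a relative deviation of 5e-15. It leaves out 52 genes with no count. Lines without a gene, 6 in number, stayed out of all totals. Genes took 81.8% to 84.2% of listed totals, so 15.8% to 18.2% of the listed totals were not assigned to a gene. Reads shared by near-identical or overlapping genes may be misassigned.

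The members and lists were chosen with earlier results of these data known. Members came from the deposited normalized counts. Raw counts were tested with edgeR 4.0.16 in R 4.3.3 (filterByExpr, TMM, robust quasi-likelihood fit on growth form, Benjamini-Hochberg threshold 0.05) over 6778 *M. miltonrushii* genes. Intervals came from limma 3.58.1 on log2(normalized count + 1), chosen after seeing the data, and deviations used the same pseudocount of 1. DESeq2 1.42.0, other scalings, other limits of the rule, a replicate block and leaving out each library were tried as alternatives. Python 3.11.15 with numpy 2.4.6, pandas 2.3.3, scipy 1.17.1 and matplotlib 3.10.9 did the rest. The rule, the deviation and the edgeR test were tested on simulated data.

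Named members are the 10 most abundant, the 5 tightest and 5 widest between replicates, and those nearest the limits. Product group lists need product names and were not used, and no sequence is printed. Replicate pairs differed by more than sampling noise, with a chi-square per degree of freedom of 15.8 to 109 over all genes. Over the members it was 50.7 to 633, highest between yeast replicates 1 and 3. This quantity grows with read counts, and the members were chosen for high counts, so it does not compare their spread with that of all genes. By the replicate deviation, the members were the less spread in every library. All 6 libraries were kept, a choice that these values do not test.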

Additional observations from a re-analysis of the deposited data

How the results depend on the processing

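The rule gave 72 members, and 67 to 77 genes with 1 library left out. It gave 115 genes among the 500 most abundant and 48 among 200, and 33 with a ratio window of 1.2 and 151 with a window of 2. The 15 calls among members became 37 with library size alone and 1 to 23 with 1 library left out. They were 6, 1 and 5 without filamentous replicates 1, 2 and 3, and 23, 7 and 19 without yeast replicates 1, 2 and 3. DESeq2 called 16 members and limma 18. Over all genes 4479 were called, and 4041 to 4606 under the alternatives. Filamentous growth was the higher form for 1483 and the lower for 3123 of the genes called when only library size was scaled, against 2264 and 2215 with TMM. The members' share of counts changed by -0.37 on the log2 scale, filamentous over yeast, and by 0.17 for members chosen with library size alone, a choice that itself holds shares close. The difference in replicate deviation kept its direction with TMM factors, with library size alone and with each library left out, but the forms overlapped with TMM factors and with library size alone (exact permutation p = 0.2 for each). It stood at -0.0222 to -0.141 with 1 library left out, where a library may be set against a single other one. The exact permutation p was then 0.4 without filamentous replicate 2, 0.2 without filamentous replicate 3 and 0.1 without any other library. The libraries that remain in the reduced form are set only against each other and so share the same deviation. Nothing is therefore read from these p-values, and the range is not on the same footing as the full difference.

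Of the 24 named members, TMM moved none beyond the replicate spread and upper-quartile factors moved 6. Library size alone moved 17, and protein 92845, which moved and also changed sign after being called, was counted apart from these. The sign of the ratio changed for 4 named members with upper-quartile factors and for 7 with library size alone, which lowers all genes alike. Of these 7 only protein 92845, at a log2 ratio of -0.034, had been called. Titles number replicates 1 to 3 in both forms, without saying what a number stands for. Deviations of same-numbered libraries correlated across genes at 0.23, -0.09 and 0.18, against -0.26 to 0.14 for the 6 unlike-numbered pairs. Because 1 same-numbered pair was not above 0.1, the samples were not treated as paired. The description labels carry other numbers than the titles. With the replicate block 4585 genes and 21 members were called. Counting error at the members' lowest raw count, 1.91%, was below their median replicate spread of 10.2%.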

Other observations

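The following members were chosen after their values were seen. In 3 members filamentous replicate 1 was lower than both other filamentous libraries by at least 1.4-fold. Protein 118856 had 7957, 12505 and 13218 normalized counts in filamentous libraries and 10952, 17853 and 11464 in yeast libraries. Protein 142150 had 5219, 8156 and 7737 in filamentous libraries and 6980, 11460 and 8569 in yeast libraries. Protein 165941 had 9375, 14492 and 13830 in filamentous libraries and 10594, 12150 and 9145 in yeast libraries. In all 3, yeast replicate 2 was the highest yeast library. Over the 72 members the highest yeast library was replicate 1 for 37, replicate 2 for 10 and replicate 3 for 25. The 3 were picked after their values were seen, so nothing is read from this shared feature.

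Yeast replicates 1 and 3 differed in one direction more often than in the other among the members. Yeast replicate 1 was at least 1.5 times yeast replicate 3 for 13 members, and the reverse held for 1. Among the 228 other abundant genes the counts were 39 and 19. No test of this imbalance was run, and genes of 1 library are not independent of each other.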
